A study of Mus musculus with 30 samples.

Results

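Apod, Trim12a, Arsk, Gng4, C130079G13Rik and 6530402F18Rik are 6 genes that were chosen by their signal in control skin: in 5 of them at least 1 probe set differed by more than 3-fold between WT and D6-deficient mice before inflammation was induced, and in 6530402F18Rik by less. They are 6 of 22121 gene symbols on the array and were represented by 13 of 45037 probe sets, all of which were taken. Apod had 2 probe sets, Trim12a 3, Arsk 2, Gng4 3, C130079G13Rik 1 and 6530402F18Rik 2. A genotype difference that is fixed would last over all days, and this held for only part of the set. Of these genes, 1 Apod probe set was lower in D6-deficient skin on every later day, 1 Trim12a and 1 6530402F18Rik probe set were lower in the mean of the later days, and no difference in Arsk, Gng4 or C130079G13Rik passed the test on any later day.

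D6 is a scavenging receptor that removes inflammatory CC chemokines, and the phorbol ester TPA irritates the skin when painted on it. Whole back skin was taken from female mice of 8 to 12 weeks on a mixed 129–C57BL/6 background, WT or D6-null. Shaved skin received 3 applications of 50 µM TPA, 24 h apart, and was taken on day 1, 2, 4 or 6 after the last one; control skin, called untreated in the titles and acetone-treated in the descriptions and methods, stands as day 0. This gives 10 groups, each of 3 mice, and 1 Affymetrix mouse expression array was run per mouse, 30 in all. Sources give no litters, and the share of the 129 and C57BL/6 genomes in each mouse was not analysed here.

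All levels below are log2 of the deposited RMA intensity of a probe set, and all differences are D6-deficient minus WT on that scale, so that 1 unit is a factor of 2 and a negative value is a lower D6-deficient level. Levels of different probe sets are not comparable, since each binds its target with its own strength. Array medians ran from 5.64 to 5.80, and the median probe set had an SD of 0.19 among the 3 arrays of a group. The D6 gene itself, listed under its older symbol Ccbp2, checked the labels. Its probe set 1422112_at lay between 4.15 and 5.76 on the 15 WT arrays and between 3.30 and 3.86 on the 15 D6-deficient arrays, without overlap, and 1422111_at was also lower in the mean of the later days (difference -0.58 ± 0.11, SE, limma adjusted p = 0.0012). The brightest one, 1437937_at, lay between 6.59 and 8.54 and showed a difference of -0.04 ± 0.12 (SE, limma adjusted p = 0.91); which part of the gene each probe set covers is not analysed here.

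The genes belong to unrelated families. Apod encodes apolipoprotein D, a secreted lipocalin that carries small hydrophobic molecules such as arachidonic acid. Trim12a is one of a cluster of mouse genes related to TRIM5, proteins with a RING finger that take part in innate defence against viruses, many of them induced by interferon. Arsk encodes arylsulfatase K, a lysosomal sulfatase that acts on glycosaminoglycans, and Gng4 encodes a gamma subunit of heterotrimeric G proteins. RefSeq lists C130079G13Rik as Aadacl2fm1, a member of the arylacetamide deacetylase-like family, and 6530402F18Rik as a long non-coding RNA.

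The results turn on a Trim12a probe set that moved on the same arrays as one of Trim34, its neighbor in the TRIM cluster, so the promoters of both genes are shown here, from RefSeq on build GRCm38.p6. Each runs 5′ to 3′ along the gene's own strand, from 250 bases before the annotated start to 30 bases after it. Capitals mark 2 copies of TTTC with 2 bases between them, the core of the interferon-stimulated response element (ISRE), searched on both strands.
Trim12a, chr7:104315466-104315745, minus strand: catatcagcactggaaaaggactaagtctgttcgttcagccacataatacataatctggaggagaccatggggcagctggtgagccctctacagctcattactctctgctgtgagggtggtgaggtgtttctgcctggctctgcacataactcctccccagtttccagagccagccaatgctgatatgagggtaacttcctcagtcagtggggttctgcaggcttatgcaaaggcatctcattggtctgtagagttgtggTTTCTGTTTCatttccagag
Trim34 (Trim34a in RefSeq), chr7:104244207-104244486, plus strand: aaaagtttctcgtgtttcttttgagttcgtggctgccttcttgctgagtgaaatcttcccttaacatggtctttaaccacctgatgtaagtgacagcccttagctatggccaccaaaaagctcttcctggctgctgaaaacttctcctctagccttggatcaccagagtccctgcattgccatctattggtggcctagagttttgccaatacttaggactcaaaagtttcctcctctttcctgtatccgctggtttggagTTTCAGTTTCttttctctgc
In both, the match begins 11 bases past the start, counting the start as 1. The motif was found in 1077 of 32851 RefSeq promoters of that length (3.28%), and in none of the 6 promoters listed for the other 5 genes of the set, of which Gng4 has 2. The AP-1 motif TGANTCA, the element through which TPA acts in many genes, was found in 7.46% of all promoters and in none of the promoters of the 6 genes or of Trim34. A match is a run of letters and not a measured binding site.

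In control skin, the values that chose the genes were as follows, and they are given without a test. The difference was -3.98 for Apod 1444564_at, -3.74 for Trim12a 1437432_a_at and -0.73 for 6530402F18Rik 1441725_at, all lower in D6-deficient skin. It was 2.14 for Arsk 1453109_at, 2.11 for Gng4 1447669_s_at and 1.95 for C130079G13Rik 1457645_at, all higher. The other probe sets of these genes were between -0.44 and 0.04, except Gng4 1417943_at at 1.51. By size alone, 5 of the 12 tested probe sets differed by more than 3-fold (the fold of the methods) in control skin, against 0.216% of all tested probe sets, which is what the choice of the genes fixes.

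**Figure D1:**
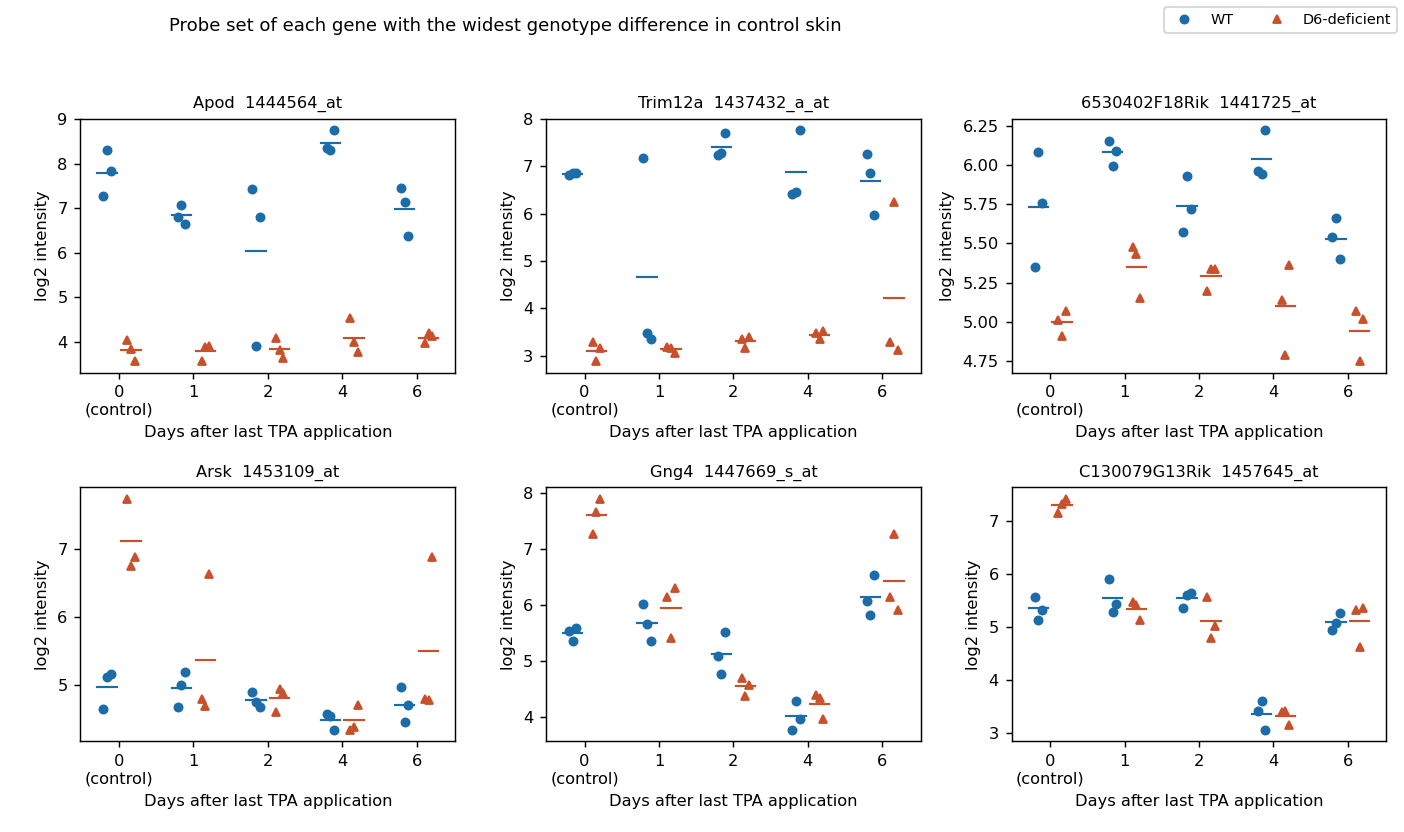
Log2 intensity (vertical axes) of the probe set of each gene with the widest difference in control skin, by day after the last TPA application (horizontal axes); points are single arrays, 3 a group, and bars are group means. Apod and Trim12a stay low in D6-deficient skin on nearly all arrays, whereas C130079G13Rik is high on the 3 D6-deficient control arrays and Gng4 on these and on 1 D6-deficient array of day 6.

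For the later days, which come from other mice, D6-deficient and WT skin were compared on each day and in the mean of the 4 days (12 arrays against 12), with limma and Benjamini-Hochberg adjustment over 36029 tested probe sets. A probe set passed at an adjusted p under 0.05. Of the 12 tested probe sets, 1 passed on every later day (Apod 1444564_at), whereas 7 of all tested probe sets did so (0.0194%). By day, 1 of the 12 passed on day 1 (0.0555% of all tested probe sets), 2 on day 2 (4.45%), 4 on day 4 (0.513%) and 1 on day 6 (0.125%). At least 1 later day was passed by 4 of the 12, against 4.89% of all tested probe sets. In the mean of the later days 3 of the 12 passed, all lower in D6-deficient skin, and 5.65% of all tested probe sets passed, 3.36% on the lower side. The third Trim12a probe set, 1420648_at, was not tested because its mean of 3.63 fell under the lowest mean kept (3.72); it lay between 3.24 and 4.32 on all arrays. The filter used the mean over all 30 arrays, and Trim12a 1437432_a_at passed it through its WT arrays: its mean over the later days was 3.52 in D6-deficient skin.

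**Figure D2:**
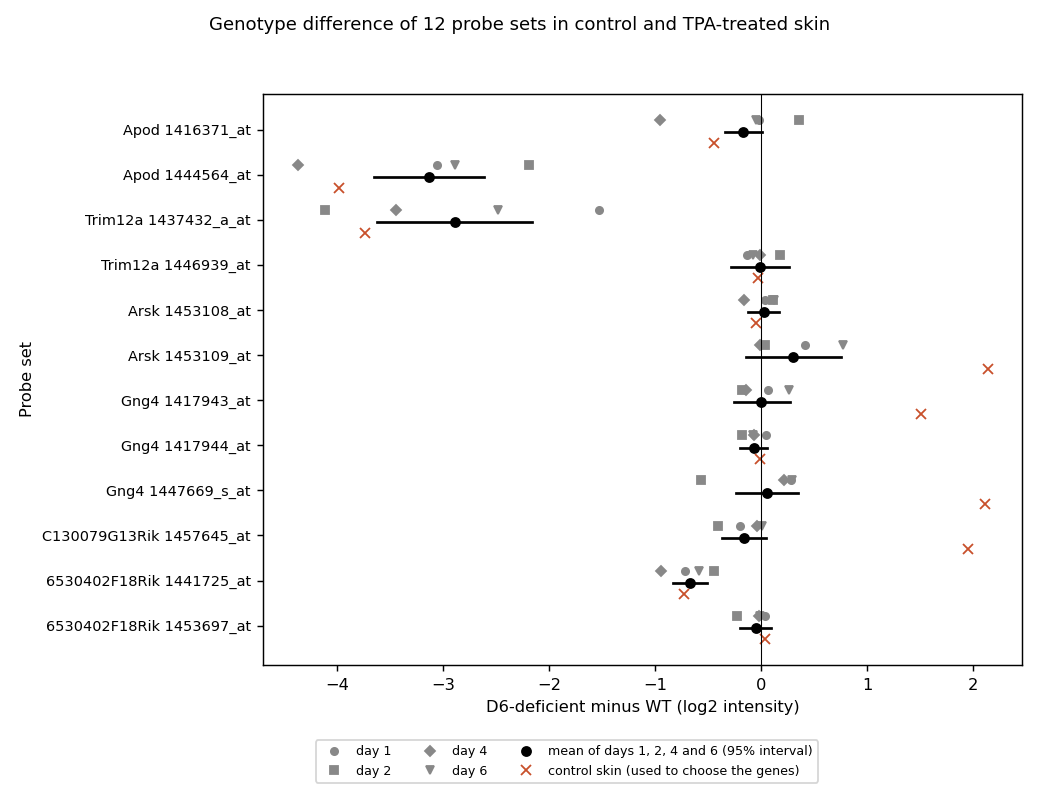
Difference D6-deficient minus WT (horizontal axis, log2 intensity) of the 12 tested probe sets (vertical axis); black points with bars are the mean of days 1, 2, 4 and 6 with its 95% interval, gray symbols are single days, and crosses are control skin. The intervals of Apod 1444564_at, Trim12a 1437432_a_at and 6530402F18Rik 1441725_at lie below 0, and the crosses of Arsk 1453109_at, Gng4 1447669_s_at and 1417943_at and C130079G13Rik 1457645_at lie to the right of their later days.

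Apod 1444564_at was lower in D6-deficient skin on all 4 later days, by 3.13 ± 0.25 in their mean (SE, 12 arrays against 12, limma adjusted p = 3.4e-08), which is 8.75-fold. In WT skin it read 7.27, 8.30 and 7.84 on the control arrays, 6.81, 7.08 and 6.64 on day 1, 7.43, 3.91 and 6.81 on day 2, 8.36, 8.30 and 8.75 on day 4, and 7.46, 7.15 and 6.37 on day 6. In D6-deficient skin it read 4.04, 3.84 and 3.58 on the control arrays, 3.57, 3.89 and 3.90 on day 1, 4.10, 3.82 and 3.65 on day 2, 4.53, 3.99 and 3.78 on day 4, and 3.97, 4.21 and 4.13 on day 6. All arrays but 1 thus fell by genotype: the widest gap between neighboring values ran from 4.53 to 6.37, with 14 WT arrays above it, and replicate 2 of WT day 2 was the only WT array below it. A gap at least that wide (1.84) was present in 0.352% of tested probe sets. These values include the control arrays that chose the gene, so the choice in part fixed this gap and its rarity.

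The Apod difference passed on each day, at -3.06 on day 1 (limma adjusted p = 0.013), -2.19 on day 2 (limma adjusted p = 0.0098), -4.37 on day 4 (limma adjusted p = 4.0e-05) and -2.89 on day 6 (limma adjusted p = 0.021), each with an SE of 0.50. Whether it changed in size over the later days did not pass a test (genotype by day, limma adjusted p = 0.45). The WT level moved over the later days (limma adjusted p = 0.0056), with its highest mean, 8.47 ± 0.24 (SD, n = 3), on day 4 and its lowest, 6.05 ± 1.88, on day 2, where replicate 2 stood apart. In D6-deficient skin the means of the 5 days stayed between 3.79 and 4.10, and no movement over the later days passed (limma adjusted p = 0.92). These levels lay near the lowest mean kept (3.72), which limits how far a fall could be seen. In the order of the 10 group means, the 5 WT groups came first and the 5 D6-deficient groups last, but only WT day 4 and the next group, WT control, did not overlap in their ranges of 3 arrays. The call on every later day rested on few arrays: leaving out any 1 of 7 arrays (replicate 1 or 2 of D6-deficient day 1, replicate 2 of D6-deficient day 6, or replicate 2 of WT day 1, 1 or 3 of WT day 2, or 1 of WT day 6) ended it on 1 day, at adjusted p between 0.05 and 0.16, and left the mean of the later days between -3.14 and -2.96. The value of day 2 moved most, to -1.50 without WT day 2 replicate 1 and to -3.27 without replicate 2.

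The brighter Apod probe set, 1416371_at, did not share this pattern. It lay between 11.11 and 11.99 on all WT arrays, and its mean difference over the later days did not pass (-0.17 ± 0.08, SE; 95% interval -0.34 to 0.01, limma adjusted p = 0.30). On day 4 its D6-deficient mean was 10.37 ± 0.34 (SD, n = 3), and the highest of those arrays, 10.68, lay below the WT arrays at 11.30, 11.11 and 11.55, a difference of -0.95 ± 0.17 (SE, limma adjusted p = 0.006). On day 2 D6-deficient arrays lay at 11.95, 11.59 and 11.81 and WT arrays at 11.35, 11.28 and 11.65, a difference of 0.36 that did not pass (limma adjusted p = 0.30). The difference of this probe set varied over the later days (genotype by day, limma adjusted p = 0.023), the only one of the 12 for which that test passed, against 0.791% of all tested probe sets. The call was lost without any 1 of 5 arrays (D6-deficient day 2 replicate 3 or day 4 replicate 1, or WT day 2 replicate 1, day 4 replicate 1 or day 4 replicate 3), at adjusted p from 0.053 to 0.085. The level moved over the later days in D6-deficient skin (limma adjusted p = 4.7e-06) and not detectably in WT skin (limma adjusted p = 0.75).

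**Figure D3:**
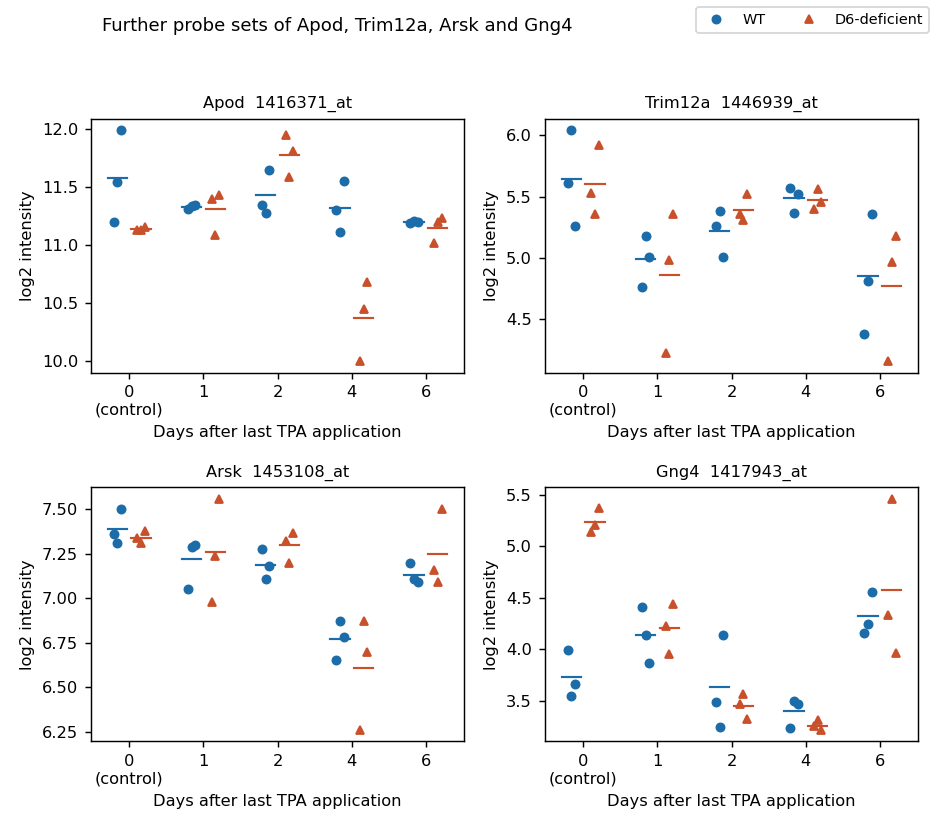
Log2 intensity (vertical axes) of a further probe set of Apod, Trim12a, Arsk and Gng4, by day after the last TPA application (horizontal axes); points are single arrays, 3 a group, and bars are group means. Apod 1416371_at falls on D6-deficient day 4, Trim12a 1446939_at and Arsk 1453108_at show no lasting gap between genotypes, and Gng4 1417943_at is high in D6-deficient control skin.

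Both Apod probe sets measure whole skin, in which fewer cells of a type and less RNA per cell cannot be told apart. Apod is made by fibroblasts and Schwann cells, among others. The mean level of 6 of 6 dermal fibroblast markers lay between 12.96 and 13.43 on the later WT arrays and between 12.75 and 13.32 on the later D6-deficient arrays. That of 5 of 5 Schwann cell markers lay between 6.98 and 7.81 and between 6.79 and 7.64. Over the later days together, both lists overlapped between genotypes. By day, the fibroblast arrays did not overlap on day 4 (WT 12.96 to 13.18, D6-deficient 12.75 to 12.87) or day 6 (13.34 to 13.40 and 13.23 to 13.32). Their ranges met at 13.32 on day 1 and overlapped on day 2. The Schwann cell arrays did not overlap on day 1 (7.51 to 7.73 and 7.29 to 7.49) and overlapped on the other later days. On day 4 the fibroblast mean was 13.03 for WT and 12.81 for D6-deficient mice. The part of either list in the results was not tested. Among 15 tested probe sets of 13 other lipocalin genes, none passed in the mean of the later days, which is close to the 5.65% of all tested probe sets. Their differences ran from -0.38 to 0.78 with a median of 0.01, beside a median of 0.00 over all tested probe sets.

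Over the 30 arrays the probe sets that ran most like Apod 1444564_at were Ccbp2 1422112_at (Pearson r = 0.92), 1432198_at, which has no gene symbol (r = 0.88), and Arhgap31 1455164_at (r = 0.88), a gene on the same chromosome. These r values are descriptive and share the genotype split; with each group's mean taken out they fell to 0.35, 0.47 and 0.62. Arhgap31 was lower in D6-deficient skin in the mean of the later days (-0.56 ± 0.10, SE, limma adjusted p = 7.9e-04), and on WT day 2 it read 8.61, 7.63 and 8.28, lowest on the replicate that was low for Apod. On that array Ccbp2 1422112_at read 4.15, above all D6-deficient arrays. For the bright probe set 1416371_at the closest were Emr4 (r = 0.80) and Emr1 (r = 0.77), which encode adhesion receptors of macrophages, and a probe set shared by BC096441 and Tnfsf13 (r = 0.77). With group means taken out, these fell to 0.63, 0.12 and 0.25.

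Trim12a 1437432_a_at was lower in D6-deficient skin by 2.89 ± 0.35 in the mean of the later days (SE, limma adjusted p = 9.7e-06), with most D6-deficient arrays near the bottom of the array's range. In WT skin it read 6.82, 6.86 and 6.85 on the control arrays, 7.17, 3.48 and 3.34 on day 1, 7.24, 7.28 and 7.71 on day 2, 6.42, 6.45 and 7.76 on day 4, and 7.25, 6.86 and 5.97 on day 6. In D6-deficient skin it read 3.28, 2.88 and 3.15 on the control arrays, 3.19, 3.16 and 3.05 on day 1, 3.34, 3.16 and 3.39 on day 2, 3.47, 3.35 and 3.51 on day 4, and 3.29, 6.24 and 3.11 on day 6. The values fell into 2 levels with nothing between 3.51 and 5.97, and 3 arrays lay on the side of the other genotype: WT day 1 replicates 2 and 3 were low, and D6-deficient day 6 replicate 2 was high. On the same 3 arrays Ccbp2 1422112_at read 4.93, 4.41 and 3.47, each on the side of its label. The gap of 2.46 was matched or exceeded in 0.211% of tested probe sets. Here too the values include the control arrays that chose the gene, so the gap is no support apart from that choice.

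By day, the Trim12a difference passed on day 2 (-4.11 ± 0.71, SE, limma adjusted p = 6.5e-04) and day 4 (-3.44, limma adjusted p = 0.021), and did not pass on day 1 (-1.53, 95% interval -2.99 to -0.07, limma adjusted p = 0.60) or day 6 (-2.48, 95% interval -3.93 to -1.02, limma adjusted p = 0.18). Days 1 and 6 are the days with arrays on the other side. Leaving out 1 array at a time kept the mean of the later days between -3.14 and -2.58, passing each time, while the call on day 4 was lost without any 1 of 5 arrays of that day, at adjusted p from 0.05 to 0.099. Leaving out WT day 1 replicate 1, the one high array of its group, brought day 6 to an adjusted p of 0.047. The WT level varied over the later days (limma adjusted p = 0.021), and no variation passed in D6-deficient skin (limma adjusted p = 0.56). No neighboring pair in the order of the 10 group means was free of overlap. The other tested Trim12a probe set, 1446939_at, lay between 4.16 and 6.04 in both genotypes, with a difference of -0.01 (95% interval -0.28 to 0.26, limma adjusted p = 0.98).

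The Trim34 probe set 1424857_a_at followed Trim12a over the 30 arrays (r = 0.98, and 0.95 with group means taken out), as did 1436061_at, which has no gene symbol (r = 0.98, and 0.95). Trim34 read 7.53, 4.69 and 4.36 on WT day 1 and 4.89, 6.73 and 4.44 on D6-deficient day 6, so that the same 3 arrays stood on the other side. In control skin its mean was 7.46 for WT and 4.94 for D6-deficient mice, and it was lower by 1.92 ± 0.27 in the mean of the later days (SE, limma adjusted p = 7.4e-05). The next closest was Hgsnat 1450868_at, a lysosomal acetyltransferase of heparan sulfate breakdown, with r = 0.81 that fell to 0.31 with group means taken out.

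**Figure D4:**
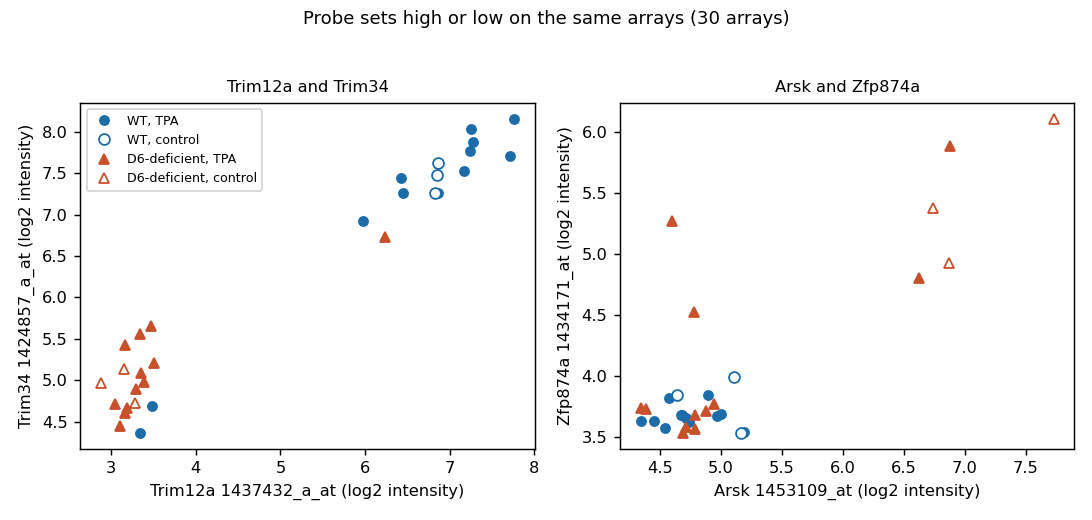
Left, Trim12a against Trim34; right, Arsk against Zfp874a; both axes are log2 intensity, and each point is 1 of 30 arrays, open for control skin. Trim12a and Trim34 form 2 clouds, with 2 WT arrays in the low one and 1 D6-deficient array in the high one. High Arsk values are found on 5 D6-deficient arrays, including the control arrays that chose the gene.

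Other TRIM genes did not share one direction. Among 16 tested probe sets of 10 genes related to TRIM5, TRIM30 and TRIM34, 5 were higher and 4 lower in the mean of the later days, with a median of 0.19. Of all tested probe sets, 5.65% passed there, 3.36% on the lower side. A second Trim34 probe set, 1426093_at, was higher in D6-deficient skin (0.74 ± 0.11, SE, limma adjusted p = 1.2e-04), opposite to 1424857_a_at. Another, 1421550_a_at, shared by LOC640746 and Trim34, was lower (-0.45 ± 0.11, SE, limma adjusted p = 0.013), on the side of 1424857_a_at. Trim30a 1451860_a_at was higher (0.75 ± 0.10, SE, limma adjusted p = 4.9e-05), whereas A530023O14Rik, which RefSeq names Trim30b (-0.85 ± 0.13, SE, limma adjusted p = 1.4e-04), and Trim30d 1438716_at (-0.83 ± 0.22, SE, limma adjusted p = 0.024) were lower. Another Trim30a probe set, 1417961_a_at, did not pass (0.14, limma adjusted p = 0.60). Neither did Trim30d 1435665_at (-1.07, limma adjusted p = 0.079). These genes are close relatives, and signal from a relative on a probe set cannot be told apart here. Of 12 tested probe sets of 10 interferon-induced genes, 12 were higher in D6-deficient skin in the mean of the later days (median 1.35, range 1.09 to 2.28). Of all tested probe sets, 5.65% passed there in either direction. The paper lists most of these genes among the most raised on day 2 in these same arrays, so this count was largely fixed in advance. Apart from the probe set shared by Gm9706 and Isg15, each passed on day 2 alone. On day 2, when Ifi44 differed by 4.31 (limma adjusted p = 6.0e-06) and Irf7 by 3.24 (limma adjusted p = 3.5e-09), Trim12a 1437432_a_at read 3.34, 3.16 and 3.39 on the D6-deficient arrays. These levels lay near the bottom of the array's range, and a part of interferon in the Trim12a level was not tested.

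The long non-coding RNA 6530402F18Rik, on probe set 1441725_at, was lower in D6-deficient skin by 0.67 ± 0.08 in the mean of the later days (SE, limma adjusted p = 4.9e-06), which is 1.60-fold. In WT skin it read 5.35, 6.08 and 5.76 on the control arrays, 6.15, 5.99 and 6.09 on day 1, 5.57, 5.93 and 5.72 on day 2, 5.96, 5.94 and 6.22 on day 4, and 5.54, 5.66 and 5.40 on day 6. In D6-deficient skin it read 5.01, 4.91 and 5.07 on the control arrays, 5.48, 5.43 and 5.15 on day 1, 5.20, 5.34 and 5.34 on day 2, 5.14, 4.79 and 5.36 on day 4, and 5.07, 4.75 and 5.02 on day 6. On every later day the 3 D6-deficient arrays all lay below the 3 WT arrays, the only one of the 12 probe sets for which this held, against 0.311% of all tested probe sets. Over the later days 1 WT array and 2 D6-deficient arrays lay within the range of the other genotype. The difference was small and of 1 sign: -0.72 on day 1 (limma adjusted p = 0.087), -0.44 on day 2 (limma adjusted p = 0.12), -0.94 on day 4 (limma adjusted p = 0.0028) and -0.59 on day 6 (limma adjusted p = 0.13), each with an SE of 0.15. It passed on day 4 alone, and whether it varied over the later days did not pass (genotype by day, limma adjusted p = 0.69). The second probe set, 1453697_at, lay between 4.54 and 5.35 in both genotypes, with a difference of -0.05 (95% interval -0.20 to 0.09, limma adjusted p = 0.76).

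A difference of one sign is common: 3 of the 12 probe sets had a difference of one sign on all 4 later days (Apod 1444564_at, Trim12a 1437432_a_at and 6530402F18Rik 1441725_at), and 21.1% of all tested probe sets did, a share close to that of the 12. The probe sets most like 6530402F18Rik 1441725_at were Tmem66 (r = 0.82), Olfml2a (r = 0.80), on the same chromosome, and Ccbp2 1422112_at (r = 0.79), and with group means taken out these fell to 0.31, 0.47 and 0.20. All of these were also lower in D6-deficient skin in the mean of the later days, Tmem66 by 0.67 ± 0.08 (SE, limma adjusted p = 5.2e-06) and Olfml2a by 0.60 ± 0.14 (SE, limma adjusted p = 0.011).

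The sulfatase gene Arsk was high on probe set 1453109_at in D6-deficient control skin, and no difference passed on the later days. In D6-deficient skin it read 7.73, 6.74 and 6.87 on the control arrays, 4.79, 4.69 and 6.62 on day 1, 4.60, 4.94 and 4.88 on day 2, 4.34, 4.38 and 4.71 on day 4, and 4.79, 4.78 and 6.88 on day 6. In WT skin it read 4.64, 5.11 and 5.16 on the control arrays, 4.67, 5.0 and 5.19 on day 1, 4.89, 4.74 and 4.68 on day 2, 4.57, 4.54 and 4.34 on day 4, and 4.97, 4.45 and 4.71 on day 6. Above the gap from 5.19 to 6.62 lay 5 D6-deficient arrays and no WT array, namely the 3 control arrays and the 2 arrays labeled replicate 3 on days 1 and 6. The control arrays chose the gene, so the choice in part fixed this gap. Only the 2 later arrays stand apart from that choice. The mean difference of the later days was 0.30 (95% interval -0.14 to 0.75, limma adjusted p = 0.50), and it was 0.13 with day 6 replicate 3 left out.

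The other Arsk probe set, 1453108_at, did not separate the genotypes (difference over the later days 0.03, 95% interval -0.12 to 0.17, limma adjusted p = 0.89). It lay between 6.65 and 7.50 on WT arrays, was lowest on day 4 in both genotypes (WT mean 6.77, D6-deficient mean 6.61), and moved over the later days in D6-deficient skin (limma adjusted p = 7.9e-04), while in WT skin the test stopped short (limma adjusted p = 0.054). The 3 probe sets most like 1453109_at all belong to genes on the chromosome of Arsk: 1110018J18Rik (r = 0.85), Zfp874a (r = 0.83) and Hiatl1 (r = 0.82), with 0.77, 0.68 and 0.82 once group means were taken out. Zfp874a, a zinc finger gene, read 6.11, 5.38 and 4.93 on D6-deficient control arrays, 4.80 on D6-deficient day 1 replicate 3 and 5.89 on day 6 replicate 3, and between 3.53 and 3.99 on all WT arrays. It was also at 5.27 on D6-deficient day 2 replicate 1 and 4.52 on day 6 replicate 2, where Arsk was low, so the arrays were shared in part. None of these 3 passed in the mean of the later days. The probe sets most like the bright 1453108_at were Itm2b (r = 0.89), Cyp27a1 and Cyp2e1 (both r = 0.88), the last pair encoding cytochrome P450 enzymes. With group means taken out, these fell to 0.65, 0.54 and 0.62.

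Of 41 tested probe sets of 22 other genes for sulfatases and glycosaminoglycan breakdown, none was higher and 3 were lower in the mean of the later days, a share near the 5.65% of all tested probe sets, and the median was 0.00. The 3 were Hgsnat 1450868_at (-0.97 ± 0.09, SE, limma adjusted p = 1.8e-07) and 1436580_at (-0.83 ± 0.10, SE, limma adjusted p = 7.6e-06), and Ids, iduronate sulfatase (-0.22 ± 0.05, SE, limma adjusted p = 0.016).

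The G protein subunit Gng4 was high in D6-deficient control skin on a pair of its probe sets. On 1447669_s_at D6-deficient skin read 7.28, 7.67 and 7.90 on the control arrays, 6.15, 5.41 and 6.31 on day 1, 4.71, 4.39 and 4.58 on day 2, 4.40, 4.34 and 3.97 on day 4, and 6.14, 7.28 and 5.91 on day 6. WT skin read 5.55, 5.36 and 5.60 on the control arrays, 6.02, 5.66 and 5.36 on day 1, 5.09, 4.77 and 5.53 on day 2, 3.78, 4.29 and 3.98 on day 4, and 6.08, 5.82 and 6.54 on day 6. On the later days the genotypes followed the same course, with a low on day 4 and a high on day 6, and no difference passed on any day. On day 2 the 3 D6-deficient arrays all lay below the WT arrays (-0.57, 95% interval -1.16 to 0.02, limma adjusted p = 0.35). The mean difference of the later days was 0.06 (95% interval -0.24 to 0.35, limma adjusted p = 0.89). The level moved over the later days both in WT (limma adjusted p = 2.6e-05) and in D6-deficient skin (limma adjusted p = 1.8e-06). In the order of the 10 group means D6-deficient control came first, followed by D6-deficient day 6, whose range it overlapped through replicate 2 at 7.28, and WT day 4 came last. Control skin chose the gene, so the first place of D6-deficient control was in part fixed.

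Gng4 1417943_at, near the lower end of the array's range, had the same shape: 5.14, 5.21 and 5.37 in D6-deficient control skin, 3.99, 3.55 and 3.66 in WT control skin, and a later difference of 0.00 (95% interval -0.26 to 0.27, limma adjusted p = 0.99). It too moved over the later days in WT (limma adjusted p = 0.023) and D6-deficient skin (limma adjusted p = 4.9e-04). The brightest, 1417944_at, lay between 6.66 and 7.18 on all arrays and showed neither (difference -0.07, 95% interval -0.20 to 0.06, limma adjusted p = 0.60). Among 25 tested probe sets of 17 other genes for G protein beta and gamma subunits, 2 were higher and none lower in the mean of the later days, also near the 5.65% of all tested probe sets, with a median of 0.03. They were Gnb4 (0.56 ± 0.10, SE, limma adjusted p = 5.1e-04) and Gngt2 (0.37 ± 0.07, SE, limma adjusted p = 9.5e-04). Closest to 1447669_s_at over the arrays were Arhgap39 and Ddr1 (both r = 0.91), the latter a collagen receptor, and Gpr125 (r = 0.90). With group means taken out, these fell to 0.67, 0.25 and 0.52. Closest to 1417944_at were Cd82, Slc29a4 and Tff1 (all r = 0.82), with 0.83, 0.85 and 0.80 once group means were taken out.

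C130079G13Rik 1457645_at read 7.16, 7.33 and 7.42 in D6-deficient control skin and 5.57, 5.14 and 5.33 in WT control skin. On day 1 it read 5.47, 5.42 and 5.14 in D6-deficient and 5.91, 5.29 and 5.44 in WT skin, and on day 2 5.56, 4.79 and 5.02 against 5.35, 5.61 and 5.65. On day 4 it read 3.40, 3.41 and 3.15 against 3.42, 3.61 and 3.06, and on day 6 5.33, 4.63 and 5.36 against 4.95, 5.08 and 5.27. The D6-deficient control arrays stood alone above the gap from 5.91 to 7.16. These control arrays chose the gene, so the choice in part fixed this gap. The genotypes ran together after TPA, with a shared drop on day 4 followed by a return. The mean difference of the later days was -0.16 (95% interval -0.37 to 0.05, limma adjusted p = 0.42), and no later day passed. The movement over the later days passed in WT (limma adjusted p = 2.7e-08) as in D6-deficient skin (limma adjusted p = 5.5e-08). In the order of the 10 group means, the D6-deficient control arrays did not overlap the next group, which the choice of the gene likewise fixed in part. The day 4 groups, at 3.36 (WT) and 3.32 (D6-deficient), lay below all others without overlap. Its closest probe sets were Exph5 and Cds1 (both r = 0.91) and Mtap2 (r = 0.90); with group means taken out, these fell to 0.52, -0.04 and 0.32.

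Across the set, 6 of the 12 tested probe sets moved over the later days in WT skin and 5 in D6-deficient skin, where 24.0% and 36.0% of all tested probe sets did. Those that moved in both were Gng4 1417943_at and 1447669_s_at and C130079G13Rik 1457645_at. In WT skin alone the test was passed by Apod 1444564_at, Trim12a 1437432_a_at and 6530402F18Rik 1441725_at (limma adjusted p = 0.025). In D6-deficient skin alone it was passed by Apod 1416371_at and Arsk 1453108_at. The difference between genotypes in this movement passed only for Apod 1416371_at, as above. D6-deficient levels of Apod 1444564_at and Trim12a 1437432_a_at lay near the bottom of the range, which limits how far a fall could be seen there.

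Markers of the skin's compartments also differed between days and genotypes. The mean of 5 of 5 keratinocyte markers was 11.95 in WT and 12.57 in D6-deficient control skin, with ranges of 11.89 to 12.03 and 12.45 to 12.63. It was 12.75 and 12.86 on day 1, 12.97 and 12.81 on day 2, 10.85 and 10.11 on day 4, and 12.65 in both on day 6. The mean of 6 of 6 hair follicle markers was 4.82 in WT and 4.87 in D6-deficient control skin, 9.53 and 10.51 on day 1, 4.80 and 4.93 on day 2, 5.05 and 5.30 on day 4, and 10.66 and 11.44 on day 6. On D6-deficient day 6, replicate 2, which was the highest of its group for Gng4, had the highest hair follicle mean of all arrays, at 12.92. The same array was the high one of its group for Trim12a and Trim34. The D6-deficient control arrays, at 7.28, 7.67 and 7.90 for Gng4 1447669_s_at, had hair follicle means of 4.78, 4.64 and 5.18. Hair follicle markers overlapped between the control groups. Sebaceous gland markers (4 of 5 measured) were at 9.35 in WT and 9.72 in D6-deficient control skin, with ranges of 9.24 to 9.42 and 9.63 to 9.81, and between 6.93 and 7.85 in the WT means and between 4.93 and 7.36 in the D6-deficient means of the later days. Skeletal muscle markers (5 of 5) were lower in the mean of D6-deficient skin on every day, in the direction of Apod 1444564_at, Trim12a 1437432_a_at and 6530402F18Rik 1441725_at: 13.96 in WT and 13.73 in D6-deficient control skin, 12.63 and 11.89 on day 1, 12.69 and 12.11 on day 2, 13.09 and 12.63 on day 4, and 12.80 and 12.05 on day 6. The ranges of 3 arrays overlapped on day 4 alone. The part of any of these markers in the results was not tested.

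**Figure D5:**
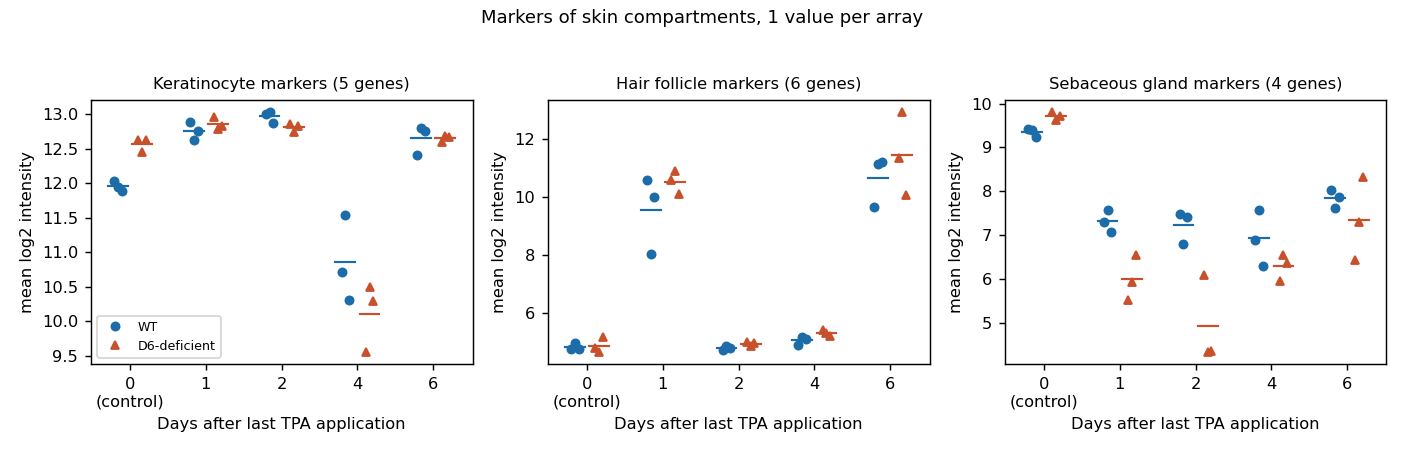
Mean log2 intensity (vertical axes) of keratinocyte, hair follicle and sebaceous gland markers, 1 point per array and 3 arrays a group with a bar at their mean, by day after the last TPA application (horizontal axes). Keratinocyte markers are lowest on day 4 in both genotypes, and hair follicle markers are high on days 1 and 6 and low on the other days.

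The nearest genes on the chromosome were compared next, taking 5 genes with a tested probe set on each side of each of the 6 genes, by their order in RefSeq (GRCm38.p6). None of the 104 probe sets of these 60 neighbors passed on every later day. In the mean of the later days 8 were higher and 7 lower, 14.4% of them, beside 5.65% of all tested probe sets. The 15 comprised 6 of 14 near Trim12a (3 higher, 3 lower), 5 of 18 near 6530402F18Rik (4 higher, 1 lower), 2 of 19 near Apod, 1 of 16 near Arsk, 1 of 14 near C130079G13Rik and none of 23 near Gng4. Of the 4 higher ones near 6530402F18Rik all but 1 were probe sets of a single gene, so these counts are not of separate genes. Neighbors in the TRIM cluster are close relatives of Trim12a and are those described above, together with 9230105E10Rik, which RefSeq names Trim12c (0.58 ± 0.10, SE, limma adjusted p = 4.8e-04). Near C130079G13Rik the one was Aadac, arylacetamide deacetylase, from the same family (-1.45 ± 0.20, SE, limma adjusted p = 6.4e-05), and near Apod they were 1 of 4 probe sets of Ppp1r2 (-0.38, the others between -0.20 and 0.14) and 1 of 3 of Pigz (-0.49, the others -0.01 and 0.09). Trim12c, Aadac, Ppp1r2 and Pigz were picked by name after their values were seen.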

How the data were processed

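Whole back skin of 30 mice was measured on Affymetrix mouse expression arrays, 3 for each genotype and day. The authors background-corrected, quantile-normalized and summarized the probes by RMA and deposited linear intensity values per probe set; versions are not given in the sources used here. Their log2 was taken without further scaling. A deposited sample sheet served only to match 1 column, whose name lacks a letter, to WT day 6 replicate 3. Of the probe sets, 64 controls and the 9008 (20%) with the lowest mean were dropped, following the methods, but no array.

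With limma 3.58.1 (lmFit, eBayes; R 4.3.3), all 30 arrays entered 1 fit of 10 group means, adjusting by Benjamini-Hochberg. F tests covered genotype by day, and day within a genotype, over days 1, 2, 4 and 6. Arrays are separate mice per the labels, and their number limits the precision. The fit was tested on simulated data. Tables and plots used Python with pandas and matplotlib.

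The genes, lists and tests were chosen with earlier results of these data known, and control skin chose the genes, so it has no test. The text names all their probe sets, the D6 gene, the 3 probe sets most correlated with the brightest and the most different probe set of each gene, neighbors that passed on every later day (there were none, and 4 others are named), and up to 4 passing genes of each list. Entrez IDs tied 78.6% of probe sets to 1 RefSeq gene. Alternatives were other filters, median centring, fewer arrays, array sets, the methods' t-test, an intensity trend, a replicate block, leaving out arrays, a fold threshold and gene means.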

Additional observations from a re-analysis of the deposited data

Results flagged for a closer look

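The difference of Apod 1416371_at between genotypes varied over days 1, 2, 4 and 6 (limma, genotype by day, adjusted p = 0.023), with 0.36 on day 2 and -0.95 on day 4. Leaving out any 1 of 5 arrays of days 2 and 4 ended this call, at adjusted p from 0.053 to 0.085. It was the only one of the 12 tested probe sets for which the groups' differences themselves differed by a test. Groups of 3 arrays were too small for a check of single outlying arrays.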

How the results depend on the processing

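The differences of the 12 probe sets in the mean of the later days stayed on their side of the threshold in 368 of 368 comparisons with an alternative, each that passed keeping its direction; averaging a gene's probe sets shrank Apod from -3.13 to -1.65, Trim12a from -2.89 to -1.01 and 6530402F18Rik from -0.67 to -0.36. Counts were less steady. With the lowest 50% of probe sets left out, only 3 of the genes' probe sets were tested, so that 0 passed on every later day (4 of all probe sets), 0 in the mean of the later days, 1 moved over the later days in WT skin and 2 in D6-deficient skin. With only the 6 arrays of a day, and with the methods' t-test after Benjamini-Hochberg adjustment, 0 of the genes' probe sets and 0 of all probe sets passed on every later day; with a change of more than 3-fold required, 3 of all did, Apod 1444564_at among them. Leaving out 1 array at a time, the genes' probe sets passing on every later day were 0 to 1 and all probe sets 3 to 8, the low counts being 3 (D6-deficient day 6 replicate 2 left out) and 4 (WT day 6 replicate 1 left out). Those in the mean of the later days stayed at 3, those moving in WT skin were 4 to 7 and in D6-deficient skin 5 to 6, and those whose difference varied over the later days were 0 to 2: 0 without D6-deficient day 2 replicate 3, D6-deficient day 4 replicate 1, WT day 2 replicate 1 or WT day 4 replicate 1 or 3, and 2 without WT day 1 replicate 1. The cause was not tested. Hybridization controls split the arrays into 13 low and 17 high ones, and with these sets as a covariate 1 of the genes' probe sets passed on every later day and 3 in the mean. Within a day, deviations of WT and D6-deficient arrays with the same replicate number had r from -0.18 to 0.38 (median -0.06). Pairs with different numbers had r from -0.45 to 0.38 (median 0.02). Deviations across days were not compared, so a batch marked by these numbers was not tested for there. With the replicate block 1 of the genes' probe sets passed on every later day, 3 in the mean of the later days and 1 varied over them. There 7 moved in WT skin, 6 in D6-deficient skin, and 7 of all probe sets passed on every later day. Counts were not remade from gene means, and D6-deficient levels of Apod 1444564_at and Trim12a 1437432_a_at near the bottom of the range (lowest value on any array 2.26) limit how far a fall could be seen.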
